A study of Mus musculus with 9 samples.

Results

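The genes described here are 10 genes whose products fill neutrophil granules, make up calprotectin or mark neutrophils: Lcn2, Ngp, Camp, Ltf, Mpo, Elane, S100a8, S100a9, Retnlg and Csf3r. They were taken by name from the 54532 genes of the deposited table, and all 10 were found. Transcripts were measured by RNA sequencing of whole aortas of Apoe-/- mice, which lack apolipoprotein E and develop atherosclerosis. The HFD_IO group (3 aortas) was fed a high fat diet and received ammonium iron(III) citrate intraperitoneally, the HFD group (3 aortas) was fed the high fat diet alone, and the CD group (3 aortas) was fed chow. All 3 groups, the chow-fed controls included, carry the Apoe-/- genotype, and the mice entered a regimen of 24 weeks at an age of 6 to 8 weeks. The series asks, by its title, what iron overload does to gene expression in atherosclerosis.

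Neutrophils are short-lived white blood cells that are made in the bone marrow under the control of granulocyte colony-stimulating factor and are loaded with antimicrobial proteins before they enter the blood. The proteins of the primary granules, such as myeloperoxidase and neutrophil elastase, are transcribed in early precursors, those of the secondary granules, such as lactoferrin and cathelicidin, at a later precursor stage, and the calprotectin subunits S100A8 and S100A9 also in mature cells, where they fill the cytosol. Several of these proteins starve microbes of metal: lipocalin 2 captures the siderophores by which bacteria take up iron, lactoferrin binds iron itself, and calprotectin binds zinc and manganese. Lcn2 is also transcribed by macrophages, epithelium and the vessel wall in inflammation, and Csf3r by some monocytes, so neither gene marks neutrophils alone.

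Levels are FPKM, the number of fragments divided by gene length in kilobases and by a factor for depth. The libraries held 16660963 to 18308450 reads in genes, and a single read in a gene 1 kilobase long counts as 0.0541 to 0.0615 FPKM. The smooth muscle markers summed to 2455 to 4198 FPKM in HFD_IO, 6857 to 7996 in HFD and 5327 to 5935 in CD, so each library had the main cell of the aortic wall. Apoe transcripts were listed at 17.5 to 21.9 FPKM in HFD_IO, 9.73 to 15.1 in HFD and 10.9 to 14.5 in CD, which, as a sum over all exons, is no test of the disruption. Among replicates, CD_2 and CD_3 differed least (chi-square of reads per gene 5.97), CD_1 stood apart from both (47.6 and 50.9), and pairs within the other 2 groups gave 24.1 to 50.1. Results that rest on CD_1 are therefore given with and without it.

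Of the 10 genes, 8 passed the filter on low values (at least 1 FPKM in at least 3 of the 9 libraries) and entered limma's fit over 13883 genes, and Mpo and Elane did not. Camp and Ltf passed only with the HFD_IO libraries counted. Between HFD_IO and HFD, 1 of the 8 genes rose, Csf3r, at an adjusted p under 0.05, where 14.1% of all tested genes rose and 28.6% changed in either direction. Between HFD_IO and CD, 2 of the 8 rose, Lcn2 and Csf3r, where 17.5% of all tested genes rose and 32.5% changed. Between HFD and CD, 1 of the 8 rose, Lcn2, where 21.8% of all tested genes rose and 39.4% changed. None of the 8 fell in any comparison by limma, at the adjusted threshold or at an unadjusted p under 0.05. Limma-voom on the recovered reads also called none lower. The share of the 8 called higher was thus near that of all tested genes in each comparison. The groups did not overlap for 3 of the 8 in HFD_IO against HFD, beside 48.5% of all tested genes (24.1% higher). They did not overlap for 2 of the 8 in HFD_IO against CD, beside 47.0% (24.3% higher), and for 1 of the 8 in HFD against CD, beside 50.7% (28.2% higher).

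The direction was less even than those calls. The log2 fold changes of FPKM + 1 were positive for 8 of the 8 tested genes in HFD_IO against HFD, with a median of 1.05 beside -0.00 over all tested genes. They were positive for 8 of 8 in HFD_IO against CD, with a median of 1.43 beside -0.01, and for 6 of 8 in HFD against CD, with a median of 0.38 beside 0.06. Camp and Ltf are among the 8 only through the HFD_IO libraries, so these counts and medians of HFD_IO lean on the filter. Over all 10 genes, the mean FPKM was higher for 9 in HFD_IO against HFD, where Elane was lower. It was higher for 10 in HFD_IO against CD and for 8 in HFD against CD. Any 2 of these comparisons share a group of libraries and are not independent of each other. Nor are the genes independent, since HFD_IO_2 was the highest library for 9 of the 10. The addition of 1 to each value understates the change of weakly expressed genes, and the p-values measure only the spread between these aortas.

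**Figure D1:**
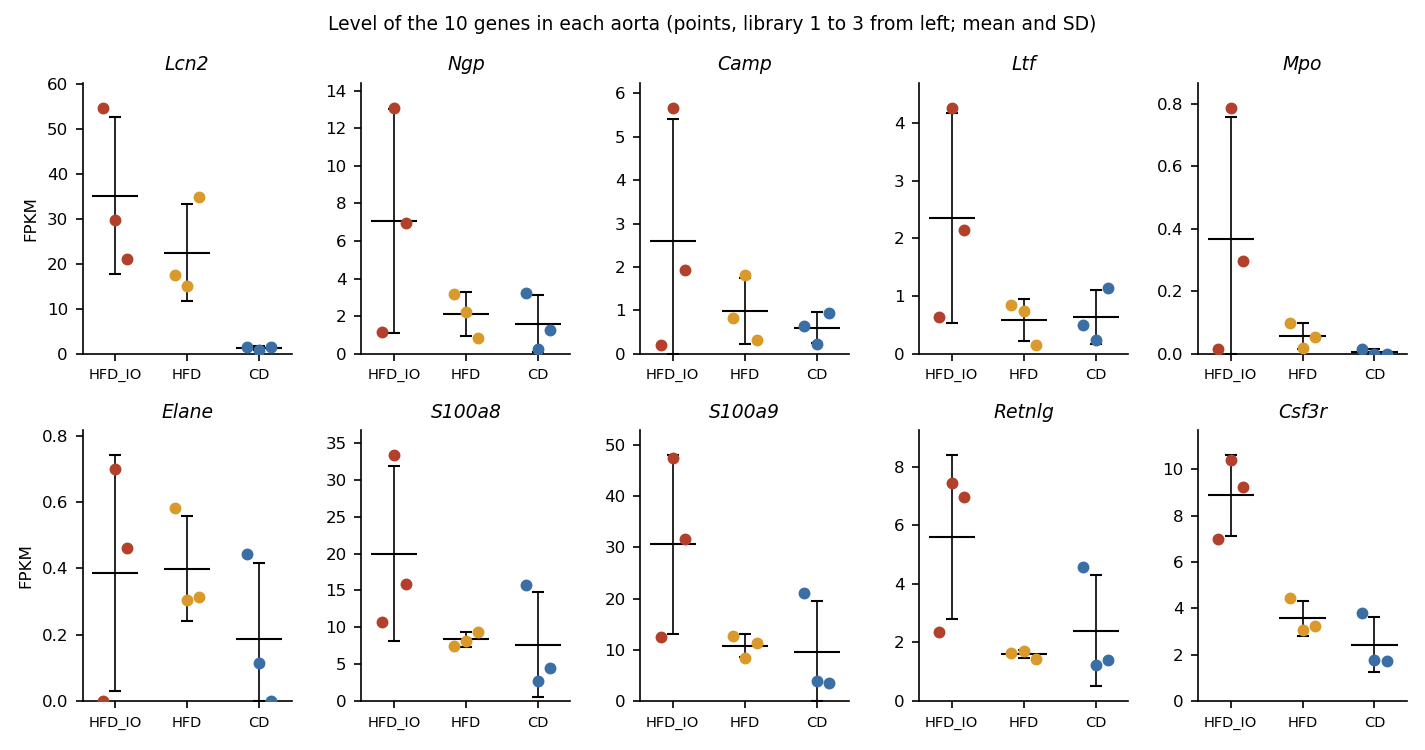
FPKM of the 10 genes (vertical axes, 1 scale per gene) in each aorta, with HFD_IO left, HFD in the middle and CD right; points are libraries 1 to 3 of a group from left to right, and lines give the mean and SD (n = 3 each). Library HFD_IO_2 is highest for 9 of the 10 genes, CD_1 is the highest of its group for 8, and Lcn2 is the gene whose CD values (0.778 to 1.55 FPKM) all lie far below those of both other groups.

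The sequence before the transcription start is shown for the gene with the largest difference between diets, Lcn2, and for the calprotectin pair, whose levels moved together. Each stretch is the 250 bases upstream of the RefSeq start on GRCm38.p6, written 5′ to 3′ on the strand of the gene, for Lcn2 chr2:32387740-32387989 (minus strand), for S100a8 chr3:90668821-90669070 (plus) and for S100a9 chr3:90695722-90695971 (minus). Capitals mark letters that match TTNNGNAA, the core bound by C/EBP proteins, which drive granulocyte maturation, searched on both strands. They also mark GAGGAAG, a site of PU.1, a factor of the myeloid lineage, searched on both strands. TATAAA, searched on the strand of the gene, is marked as well. No marked stretch overlaps another.
Lcn2: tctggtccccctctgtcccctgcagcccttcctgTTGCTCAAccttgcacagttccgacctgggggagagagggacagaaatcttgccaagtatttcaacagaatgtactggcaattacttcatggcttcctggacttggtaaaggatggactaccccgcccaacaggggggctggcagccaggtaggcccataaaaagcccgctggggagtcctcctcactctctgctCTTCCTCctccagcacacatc
S100a8: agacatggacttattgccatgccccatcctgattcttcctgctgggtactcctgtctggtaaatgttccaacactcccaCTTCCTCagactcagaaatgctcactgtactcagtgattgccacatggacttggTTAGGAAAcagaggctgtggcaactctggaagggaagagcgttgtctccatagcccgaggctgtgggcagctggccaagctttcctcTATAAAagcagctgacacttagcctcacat
S100a9: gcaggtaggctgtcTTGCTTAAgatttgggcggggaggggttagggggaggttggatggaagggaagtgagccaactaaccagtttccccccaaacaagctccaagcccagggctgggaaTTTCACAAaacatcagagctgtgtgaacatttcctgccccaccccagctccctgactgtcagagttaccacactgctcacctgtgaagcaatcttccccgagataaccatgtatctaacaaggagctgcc
The C/EBP letters were found in 6 of the 10 promoters (Lcn2, Ltf, Ngp, Retnlg, S100a8 and S100a9), beside 36.8% of 32536 promoters of the same length. The PU.1 letters were found in 5 of 10 (Csf3r, Elane, Lcn2, Mpo and S100a8), beside 10.7%, and TATAAA in 1 of 10, S100a8, where it begins 30 bases before the start, beside 7.55%. The NF-kappaB consensus was in none of the 10 windows and in 3.92% of all promoters. The RefSeq start of Lcn2 lies 513 bases inside the 5′ end of the gene in the deposited table, so its window falls within that gene model. A match is a description of letters and not of binding.

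Lcn2 (ENSMUSG00000026822, chromosome 2, 32384633 to 32388252, GRCm38) encodes lipocalin 2, the siderophore binder of secondary granules. Its level was 54.8, 29.7 and 21.2 FPKM in the HFD_IO aortas, 17.6, 15.0 and 34.9 FPKM in the HFD aortas, and 1.55, 0.778 and 1.42 FPKM in the CD aortas. Every aorta on the high fat diet, with or without iron, was above every chow aorta, and the HFD_IO and HFD ranges overlapped through the high library HFD_3. The mean was 35.3 ± 17.5 FPKM in HFD_IO and 22.5 ± 10.8 FPKM in HFD, against 1.25 ± 0.416 FPKM in CD (SD, n = 3 each). Lcn2 rose by a log2 fold change of 3.92 ± 0.37 (SE) in HFD_IO against CD (limma, adjusted p = 9.76e-05) and by 3.31 ± 0.37 in HFD against CD (limma, adjusted p = 0.000692). In terms of mean FPKM it was 28.2-fold and 18.0-fold higher. The difference of 0.61 ± 0.37 between HFD_IO and HFD did not pass the threshold (limma, adjusted p = 0.246), and it was 0.25 without HFD_IO_1, 0.38 without HFD_2 and 0.96 without HFD_3 (limma, adjusted p = 0.641, 0.531 and 0.0923). Both calls against CD held in all 20 alternative settings, with log2 fold changes of 3.55 to 4.75 and 2.96 to 4.12.

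In rank among tested genes, the mean of Lcn2 was above 89.6% of them in HFD_IO and 82.1% in HFD, and above 9.85% in CD. It was the one gene of the 10 whose order of libraries was led by HFD_IO_1 and HFD_3. These 2 libraries were among the low ones for the granule proteins described next: HFD_IO_1 ranked lowest of the 9 for Camp and HFD_3 lowest for Ltf. In bulk tissue, fewer cells of a type and less RNA per cell cannot be told apart.

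Ngp, Camp and Ltf are secondary granule genes, and all 3 lie on chromosome 9 within 1195389 bases. Ngp (ENSMUSG00000032484, 110419747 to 110423012) encodes neutrophilic granule protein, a cathelin-like protein. It had 1.15, 13.1 and 6.95 FPKM in HFD_IO, 3.18, 2.25 and 0.856 FPKM in HFD, and 3.25, 0.278 and 1.26 FPKM in CD. HFD_IO_2 and HFD_IO_3 were above all 6 HFD and CD aortas, while HFD_IO_1 lay inside the range of both other groups. The log2 fold change was 1.09 ± 0.67 in HFD_IO against HFD and 1.43 ± 0.67 in HFD_IO against CD, neither past the threshold (limma, adjusted p = 0.253 and 0.137). Without HFD_IO_1 they were 1.85 and 2.20, both past it (limma, adjusted p = 0.0447 and 0.0165), and without HFD_IO_2 they were 0.50 and 0.84 (limma, adjusted p = 0.615 and 0.404).

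Camp (ENSMUSG00000038357, chromosome 9, 109847379 to 109849617) encodes the cathelicidin precursor, from which an antimicrobial peptide is cut. Its level was 0.214, 5.67 and 1.94 FPKM in HFD_IO, 0.829, 1.81 and 0.325 FPKM in HFD, and 0.646, 0.224 and 0.942 FPKM in CD. The lowest value of all 9 aortas and the 2 highest were all in HFD_IO. The HFD_IO_1 value rests on 3 reads, which gives an exact Poisson 95% interval of 0.0441 to 0.626 FPKM, and such intervals cover counting error only. The log2 fold change was 0.60 ± 0.54 in HFD_IO against HFD and 0.87 ± 0.54 in HFD_IO against CD. Camp passed the filter only with the HFD_IO libraries counted, so no p-value is given for these differences. Single libraries decided the value: without HFD_IO_2 the differences from HFD and CD were -0.0047 and 0.26, and without HFD_IO_1 they were 1.22 and 1.49.

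Ltf (ENSMUSG00000032496, chromosome 9, 111019271 to 111042767) encodes lactoferrin, the iron-binding protein of secondary granules and secretions. It had 0.643, 4.27 and 2.15 FPKM in HFD_IO, 0.845, 0.745 and 0.161 FPKM in HFD, and 0.504, 0.246 and 1.15 FPKM in CD. As for Ngp, HFD_IO_2 and HFD_IO_3 exceeded every other aorta and HFD_IO_1 did not. The mean in HFD_IO was 4.04 times that in HFD, and the log2 fold changes were 0.96 ± 0.40 against HFD and 0.92 ± 0.40 against CD. Like Camp, Ltf passed the filter only with the HFD_IO libraries counted, so no p-value is given for them. Without HFD_IO_1 they were 1.39 and 1.36, and without HFD_IO_2 they were 0.55 and 0.52. Between HFD and CD the 3 genes gave log2 fold changes of 0.35 for Ngp, 0.27 for Camp and -0.04 for Ltf, with limma's adjusted p from 0.705 to 0.952.

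Mpo and Elane encode the primary granule enzymes and were near the limit of detection. Mpo (ENSMUSG00000009350, chromosome 11, 87793581 to 87804413), myeloperoxidase, which makes hypochlorous acid, was counted with 1, 47 and 18 reads in HFD_IO, 6, 1 and 3 reads in HFD, and 1, 0 and 0 reads in CD. The group sums were 66 reads (exact Poisson 95% interval 51.0 to 84.0) in HFD_IO, 10 (4.80 to 18.4) in HFD and 1 (0.0253 to 5.57) in CD, and 47 of the 66 came from HFD_IO_2. In FPKM every HFD aorta was above every CD aorta, but HFD_2 and CD_1 rest on 1 read each, as does HFD_IO_1. An exact two-sided permutation test gave p = 0.400 for HFD_IO against HFD, 0.200 for HFD_IO against CD and 0.10 for HFD against CD, the smallest p that 3 against 3 allows. The antisense gene Gm11505 overlaps Mpo, and no source used here gives the strand setting of the counting, so reads of the pair cannot be told apart.

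Elane (ENSMUSG00000020125, chromosome 10, 79886247 to 79888215), neutrophil elastase, had 0, 12 and 8 reads in HFD_IO, 10, 5 and 5 reads in HFD, and 8, 2 and 0 reads in CD. In HFD_IO_1 a count of 0 allows a level of up to 0.165 FPKM (3 reads), and in CD_3 up to 0.167 FPKM. The group sums were 20 reads in HFD_IO and 20 in HFD, each with an interval of 12.2 to 30.9, and 10 in CD (4.80 to 18.4). All 3 groups overlapped, and the exact permutation p was 0.90, 0.50 and 0.30 for HFD_IO against HFD, HFD_IO against CD and HFD against CD. Neither enzyme gene reached 1 FPKM in any library, whereas S100a8 and S100a9 averaged 7.68 to 30.6 FPKM per group.

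S100a8 and S100a9 encode the 2 subunits of calprotectin and are neighbours on chromosome 3, 22596 bases apart and on opposite strands, with no other gene of the table between them. S100a8 (ENSMUSG00000056054, 90668978 to 90670035) had 10.7, 33.4 and 15.9 FPKM in HFD_IO, 7.49, 8.19 and 9.40 FPKM in HFD, and 15.8, 2.70 and 4.51 FPKM in CD. S100a9 (ENSMUSG00000056071, 90692632 to 90695721) had 12.6, 47.5 and 31.7 FPKM in HFD_IO, 12.8, 8.36 and 11.3 FPKM in HFD, and 21.1, 3.91 and 3.58 FPKM in CD. For S100a8 every HFD_IO aorta was above every HFD aorta, for S100a9 HFD_IO_1 lay just under HFD_1, and for both genes CD_1 was above all HFD aortas while CD_2 and CD_3 were the lowest of the 9.

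The means of S100a8 were 20.0 ± 11.9 FPKM in HFD_IO, 8.36 ± 0.965 in HFD and 7.68 ± 7.11 in CD, and those of S100a9 were 30.6 ± 17.4 in HFD_IO and 10.8 ± 2.26 in HFD (SD, n = 3 each). Against HFD, the log2 fold changes in HFD_IO were 1.02 ± 0.54 for S100a8 and 1.25 ± 0.62 for S100a9, neither past the threshold (limma, adjusted p = 0.182 and 0.160). Against CD they were 1.44 ± 0.54 and 1.81 ± 0.62 (limma, adjusted p = 0.0699 and 0.0523). The CD spread came from 1 library: without CD_1 the differences from CD were 2.07 for S100a8 and 2.55 for S100a9, both past the threshold (limma, adjusted p = 0.00615 and 0.00445), and that of S100a9 from HFD also passed (limma, adjusted p = 0.0468). The difference of S100a9 from CD passed without HFD_IO_1 too (2.33, limma, adjusted p = 0.0256). The differences of S100a8 were smaller without HFD_IO_2 (0.59 from HFD, limma, adjusted p = 0.462) and without CD_2 (0.98 from CD, limma, adjusted p = 0.215). Between HFD and CD they were 0.41 ± 0.54 and 0.56 ± 0.62 (limma, adjusted p = 0.563 and 0.50), and without CD_1 they were 1.05 and 1.30 (limma, adjusted p = 0.0662 and 0.0508).

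The 2 subunits varied less in their proportion than in their levels. The ratio of S100a9 to S100a8 was 1.18, 1.42 and 1.99 in HFD_IO, 1.71, 1.02 and 1.20 in HFD, and 1.34, 1.45 and 0.793 in CD. The ratio of Lcn2 to S100a8 was 5.13, 0.891 and 1.33 in HFD_IO, 2.35, 1.83 and 3.71 in HFD, and 0.0982, 0.289 and 0.316 in CD. All 6 aortas on the high fat diet were above all chow aortas in that second ratio, and in the first the groups overlapped.

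**Figure D2:**
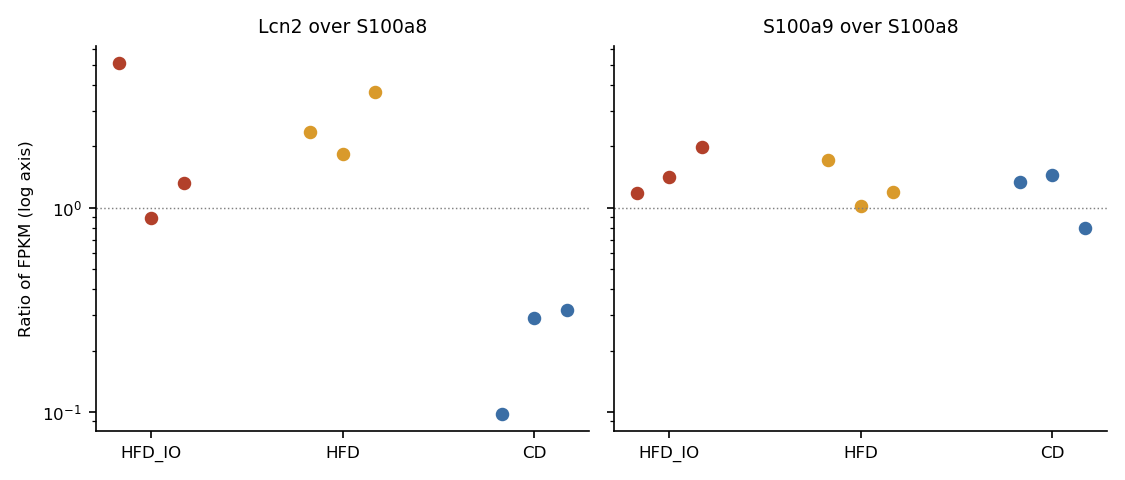
Ratio of FPKM of Lcn2 to S100a8 (left) and of S100a9 to S100a8 (right) on a log axis, with HFD_IO, HFD and CD from left to right and 1 point per aorta. The S100a9 ratio lies between 0.793 and 1.99 in all 9 aortas, and the Lcn2 ratio is 0.891 to 5.13 in the 6 aortas on the high fat diet and 0.0982 to 0.316 in the chow aortas.

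Retnlg (ENSMUSG00000022651, chromosome 16, 48872621 to 48874496) encodes resistin-like gamma, a secreted protein found in mouse granulocytes and bone marrow. It had 2.37, 7.45 and 6.97 FPKM in HFD_IO, 1.64, 1.71 and 1.45 FPKM in HFD, and 4.58, 1.24 and 1.39 FPKM in CD. All HFD_IO aortas were above all HFD aortas, and CD_1 was above HFD_IO_1. The log2 fold change against HFD was 1.23 ± 0.41 and missed the threshold narrowly (limma, adjusted p = 0.0512). It passed without HFD_IO_1 (1.66, limma, adjusted p = 0.0186) and without CD_1, which enters only the estimate of the spread (limma, adjusted p = 0.0206). Against CD it was 0.97 ± 0.41 in HFD_IO (limma, adjusted p = 0.101), and 1.40 both without CD_1 and without HFD_IO_1 (limma, adjusted p = 0.0184 and 0.0200). Between HFD and CD it was -0.26 ± 0.41 (limma, adjusted p = 0.642), and 0.17 without CD_1 (limma, adjusted p = 0.722).

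Csf3r (ENSMUSG00000028859, chromosome 4, 126024550 to 126044440) encodes the receptor for granulocyte colony-stimulating factor. Its level was 6.98, 10.4 and 9.25 FPKM in HFD_IO, 4.43, 3.05 and 3.24 FPKM in HFD, and 3.80, 1.78 and 1.73 FPKM in CD. The HFD_IO aortas stood above all others with no overlap, while HFD and CD overlapped through CD_1. The mean was 8.88 ± 1.74 FPKM in HFD_IO, 3.57 ± 0.750 in HFD and 2.44 ± 1.18 in CD (SD, n = 3 each). Csf3r rose by 1.11 ± 0.23 in HFD_IO against HFD (limma, adjusted p = 0.00984) and by 1.56 ± 0.23 in HFD_IO against CD (limma, adjusted p = 0.00111), and both calls held in all 20 alternative settings. The difference of 0.45 ± 0.23 between HFD and CD did not pass (limma, adjusted p = 0.153), though it did without CD_1 (0.72, limma, adjusted p = 0.0138).

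**Figure D3:**
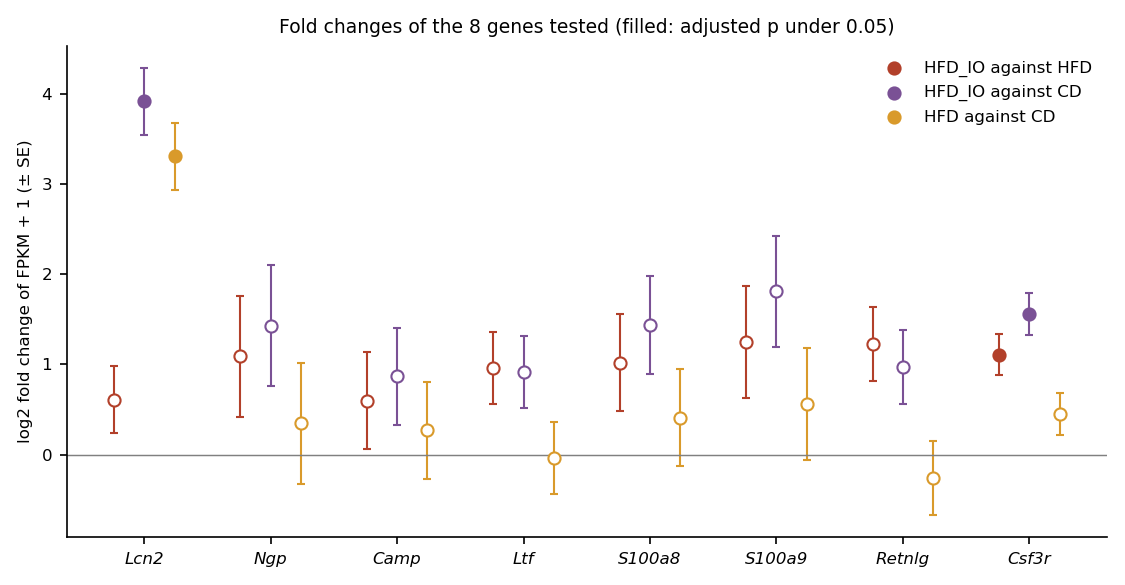
Log2 fold change of FPKM + 1 (vertical axis) of the 8 tested genes in HFD_IO against HFD, HFD_IO against CD and HFD against CD; bars are limma's SE and filled points have an adjusted p under 0.05. Filled points are Lcn2 in both comparisons with CD (3.92 and 3.31) and Csf3r in both comparisons of HFD_IO (1.11 and 1.56).

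Single libraries set how many of the 8 genes were called. Leaving out HFD_IO_1 gave 7 of the 8 higher in HFD_IO against CD (all but S100a8), beside 15.3% of all tested genes, and 4 higher in HFD_IO against HFD (Csf3r, Ltf, Ngp and Retnlg), beside 9.46%. Camp and Ltf among the 7, and Ltf among the 4, entered the fit only through the HFD_IO libraries. Leaving out CD_1 gave 5 in HFD_IO against CD (Csf3r, Lcn2, Retnlg, S100a8 and S100a9), beside 18.5% of all tested genes. It gave 3 in HFD_IO against HFD (Csf3r, Retnlg and S100a9), beside 17.6%, and 2 in HFD against CD (Csf3r and Lcn2), beside 23.9%. Leaving out any other library left the counts at 2 in HFD_IO against CD, 1 in HFD_IO against HFD and 1 in HFD against CD, beside 12.9% to 17.4%, 8.51% to 12.6% and 14.7% to 20.6% of all tested genes.

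The 9 genes other than Lcn2 were mostly high in the same aortas. Their FPKM summed to 34.7, 123 and 75.6 in HFD_IO, 31.9, 26.4 and 27.1 in HFD, and 50.2, 10.5 and 14.6 in CD. HFD_IO_2 was highest for 9 of the 10 genes and HFD_IO_3 second highest for 8, while HFD_IO_1 summed to less than CD_1. The 3 HFD aortas were alike, and the CD group held both the lowest sums and 1 of the higher ones. Calprotectin made up 55.6% to 76.4% of these sums in the 9 libraries.

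The specific granule sum of Ngp, Camp and Ltf varied more than calprotectin within HFD_IO. It was 2.01, 23.0 and 11 FPKM in HFD_IO, 4.85, 4.81 and 1.34 in HFD, and 4.40, 0.749 and 3.35 in CD. The calprotectin sum was 23.3, 80.9 and 47.6 FPKM in HFD_IO, 20.3, 16.5 and 20.7 in HFD, and 37.0, 6.61 and 8.09 in CD. HFD_IO_1 was thus lower in specific granule transcripts than HFD_1 and HFD_2 and above all HFD aortas in calprotectin.

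**Figure D4:**
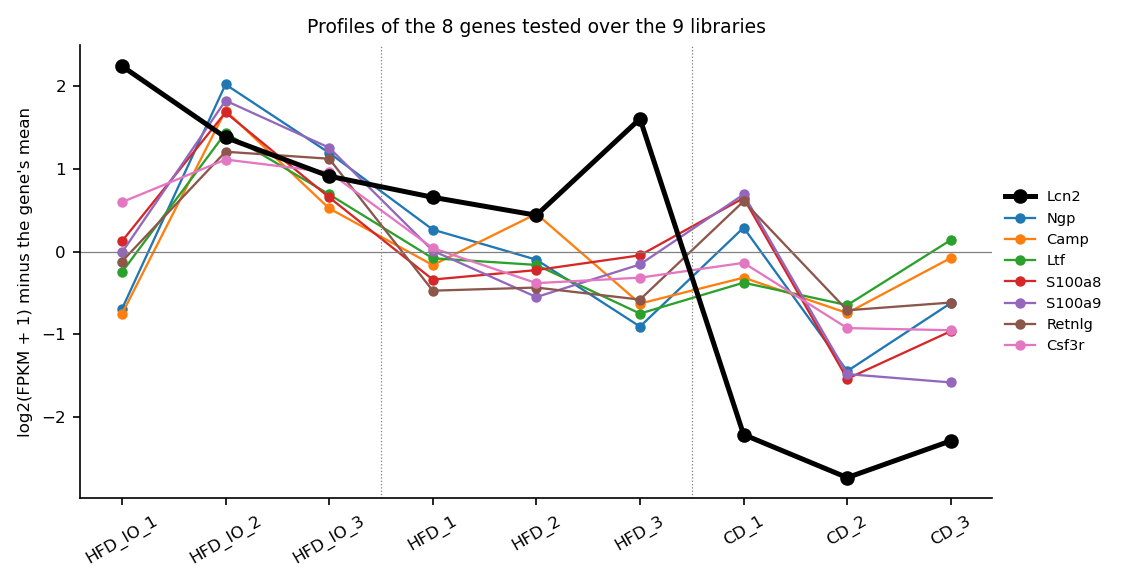
Log2(FPKM + 1) minus the gene's mean over the 9 libraries (vertical axis) for the 8 tested genes in each library, with HFD_IO, HFD and CD from left to right; lines join the points of a gene for the eye and replicates have no order. The 7 genes other than Lcn2 peak at HFD_IO_2, while Lcn2 (thick line) peaks at HFD_IO_1 and HFD_3 and is lowest in the 3 CD libraries.

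Likeness was measured as the root mean square difference of centred log2(FPKM + 1) profiles over the 9 libraries, against 11791 tested genes, as a description with no test. S100a8 and S100a9 were each other's nearest gene, at 0.34, and Camp and Ltf were each other's nearest, at 0.30. The 5 genes nearest to Ngp were all among the 10: Camp, Retnlg, S100a9, S100a8 and Ltf, at 0.50 to 0.54. S100a9 was followed by Retnlg, Csf3r, Ngp and Bst1. When each profile was also scaled to unit SD, S100a8 and S100a9 remained each other's nearest and Ltf remained nearest to Camp, but 0 of the 5 nearest genes of Ngp, Lcn2, Retnlg and Csf3r were kept. The 5 former neighbours of Ngp then ranked 7th (Ltf) to 14th (S100a8) of the 11791.

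Lcn2 had other neighbours: Chil1, Wfdc17, Fabp5, Prg4 and Lum, at 0.48 to 0.58. The other 7 tested genes came 607th (Csf3r) to 4929th (Camp) in likeness to Lcn2 of the 11791, and 1901st (Csf3r) to 4951st (Retnlg) with profiles scaled to unit SD. The nearest to Csf3r were Card9, Lacc1, Egr2, Bst1 and Zranb3, at 0.19 to 0.22, and the nearest to Retnlg were Ifi211, Il1b, Slamf9, Kcnn4 and Slfn8. A gene with a small range has a small distance to many others, so these distances are not compared between genes.

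Of 36 other genes known from neutrophils, 20 passed the filter. In HFD_IO against HFD, 7 of the 20 rose and 2 fell, with a median log2 fold change of 0.41. Over all tested genes, 14.1% rose and 14.5% fell, with a median of -0.00. Of the 7, 3 (Mmp8, Stfa3 and Clec4e) passed the filter only with the HFD_IO libraries counted, as did 4 of the 11 that rose in HFD_IO against CD (these and Chil3). The count that fell was 1 without HFD_2, HFD_3, HFD_IO_1 or HFD_IO_3 or with no filter, and 4 rose with a filter of 5 FPKM. The 4 largest changes were in Clec4d, a C-type lectin receptor (2.83), G0s2, an inhibitor of lipolysis (-2.71), Adam8, a membrane protease (2.21), and Cybb, a subunit of the phagocyte oxidase (1.81), with limma's adjusted p from 0.000352 to 0.00133. In HFD_IO against CD, 11 rose with a median of 1.43, led by Clec4d (4.92), Adam8 (4.77), the lysozyme gene Lyz2 (3.81) and Cybb (3.06). In HFD against CD, 10 rose with a median of 0.99, led by Lyz2 (3.34), the protease inhibitor Slpi (2.97), Adam8 (2.56) and Clec4d (2.09). Of all tested genes, 17.5% rose in HFD_IO against CD (median -0.01) and 21.8% in HFD against CD (median 0.06). Lyz2, Cybb, Adam8, Clec4d and Itgam are also transcribed by macrophages, and G0s2 by adipocytes.

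The genes with the narrowest neutrophil expression were scarce in all groups. Ly6g, which encodes the surface antigen used to sort mouse neutrophils, had 0.0574, 0.548 and 0.301 FPKM in HFD_IO, 0, 0.0635 and 0.131 FPKM in HFD, and 0.0577, 0 and 0 FPKM in CD. Cxcr2, the receptor for neutrophil-attracting chemokines, had 0.532, 1.03 and 0.799 FPKM in HFD_IO, 0.0750, 0.510 and 0.101 FPKM in HFD, and 0.553, 0.223 and 0.108 FPKM in CD. HFD_IO_2 was the highest library for both, as for the granule genes, and neither entered the fit. Stfa3, a stefin of mouse granulocytes with closely similar copies among which reads can be split, had 3.02, 5.15 and 4.40 FPKM in HFD_IO and 0.832, 1.45 and 0.597 FPKM in HFD, and was listed at 0 in the 3 CD libraries. Mmp8, neutrophil collagenase, had 3.35, 2.96 and 2.06 FPKM in HFD_IO, 1.25, 1.01 and 0.355 FPKM in HFD, and 0.336, 0.210 and 0.249 FPKM in CD. For both, every HFD_IO aorta was above every HFD aorta and every HFD aorta above every CD aorta. Both passed the filter only with the HFD_IO libraries counted, so no test is given for them.

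Genes of granulocyte precursors were few. Of 16, 7 passed the filter, and none was called in HFD_IO against HFD by limma or by limma-voom, with a median of -0.10. At an unadjusted p under 0.05 limma had 1, Tuba8, which was lower. Of all tested genes, 28.6% were called in that comparison. Prtn3 and Kit passed the filter only with the HFD_IO libraries counted. Ctsg, Ms4a3, Fcnb and Cebpe did not pass, so the lack of calls does not cover them. Against CD, 17.5% of all tested genes rose in HFD_IO and 21.8% in HFD, beside 2 of the 7 in each. The same 2 rose in HFD_IO against CD and in HFD against CD: Cd63, a granule membrane protein that most cells also carry (1.33 and 1.14), and Serpinb1a, an inhibitor of granule proteases (0.85 and 1.05), whose call in HFD_IO against CD was lost without CD_2, CD_3, HFD_IO_2 or HFD_IO_3. Prtn3, the gene of proteinase 3, had 0.781, 1.95 and 0.458 FPKM in HFD_IO, 0.792, 1.24 and 2.84 FPKM in HFD, and 0.691, 0.295 and 0.0951 FPKM in CD. Its HFD values were all above its CD values (limma, adjusted p = 0.0625), and HFD_IO overlapped with both. Ms4a3 had a value above 0 in 1 library of HFD_IO, and Bpi was listed at 0 in all 9.

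Around Lcn2, 17 of 20 genes of siderophore and iron handling in phagocytes and of the pathways known to induce Lcn2 were tested. In HFD_IO against HFD 8 rose and 2 fell, with a median of 0.49. The 4 largest included the phagosomal metal transporter Slc11a1 (1.73), the transcription factor Cebpd (-1.18) and the kinase Lyn (0.94), with limma's adjusted p of 0.00175, 0.00319 and 0.0112. The other was Il1b (1.04), which was also among the 11 that rose in HFD_IO against CD. Il1b passed the filter only with the HFD_IO libraries counted, so its p-value is not given. Its call was lost without HFD_2, HFD_3, HFD_IO_2 or HFD_IO_3, and the number that rose was 5 without HFD_3 or HFD_IO_2. In HFD_IO against CD 11 rose and 1 fell, with a median of 0.72, led by Slc11a1 (3.19), Lyn (2.16), the acute phase gene Saa3 (2.14) and Lrg1 (1.90). In HFD against CD 8 rose and 1 fell, with a median of 0.43, led by Saa3 (2.97), Lrg1 (1.66), Cebpb (1.53) and Slc11a1 (1.45). Of all tested genes, 14.1% rose and 14.5% fell in HFD_IO against HFD, and 17.5% and 15.0% in HFD_IO against CD. In HFD against CD these shares were 21.8% and 17.6%. The call of Saa3 in HFD_IO against CD was lost without HFD_IO_1, HFD_IO_2 or any 1 CD library, with limma-voom (3.24, adjusted p = 0.0901) and with no filter (limma, adjusted p = 0.0807).

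Slc22a17, which encodes a cell surface receptor of lipocalin 2, was the 1 gene of that list to fall in HFD_IO against CD. It had 3.87, 3.61 and 5.41 FPKM in HFD_IO and 6.67, 4.74 and 5.75 FPKM in HFD, against 6.74, 6.93 and 7.84 FPKM in CD. Each HFD_IO aorta was below each CD aorta, and the HFD range reached into that of HFD_IO. The log2 fold change in HFD_IO against CD was -0.64 (limma, adjusted p = 0.0111).

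Calprotectin is bound by the Toll-like receptor 4 complex and by other surface proteins, and 12 of 13 of these genes and of further S100 genes were tested. In HFD_IO against HFD 3 rose and 1 fell, with a median of 0.11: the fatty acid receptor Cd36 (1.66) and the TLR4 partner Cd14 (1.19) rose, as did Tlr4 (0.49), and Bsg fell by 0.41 (limma, adjusted p = 0.00483, 0.0146, 0.0228 and 0.0378). Without HFD_IO_2 only Cd36 of these kept its call. Tlr4 also lost it without HFD_3 or HFD_IO_1, and Bsg without any 1 library other than CD_1 or HFD_1 and with TPM or quantile scaling. In HFD_IO against CD 5 rose, with a median of 0.70, led by Cd36 (3.40), Cd14 (2.86), S100b (0.83) and Ly96 (0.80). S100b lost its call without CD_2, CD_3, HFD_IO_2 or HFD_IO_3, Ly96 without CD_2, HFD_IO_1 or HFD_IO_2, with TPM, with limma-voom and with no filter (adjusted p from 0.0529 to 0.0859), and the count was 9 without CD_1 and 3 without CD_2 or HFD_IO_2. In HFD against CD 8 rose and 1 fell, with a median of 0.55, led by Cd36 (1.73), Cd14 (1.67), S100b (1.31) and S100a1 (1.23), and 5 rose without CD_2 or without CD_3. Beside these 12 genes, 14.1% of all tested genes rose and 14.5% fell in HFD_IO against HFD. The share that rose was 17.5% in HFD_IO against CD, and in HFD against CD 21.8% rose and 17.6% fell.

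Of 25 genes of neutrophil recruitment, 17 were tested. In HFD_IO against HFD 7 rose, with a median of 0.64, led by the complement receptor C5ar1 (1.55) and the endothelial selectins Sele (1.44) and Selp (1.42). Limma's adjusted p was 0.00107, 0.00455 and 0.00683. The chemokine Cxcl5 (1.41) was among the 7, and among the 9 that rose in HFD_IO against CD. It passed the filter only with the HFD_IO libraries counted, so its p-value is not given. Its call in HFD_IO against HFD was lost without HFD_2, HFD_3, CD_2 or CD_3, and 4 genes rose without HFD_3. In HFD_IO against CD 9 rose, with a median of 0.76, led by the integrin subunit Itgb2 (3.36), the chemokine receptor Cxcr4 (2.16), C5ar1 (2.14) and the selectin ligand Selplg (2.02). In HFD against CD 5 rose and 2 fell, with a median of 0.17, led by Itgb2 (1.97), Cxcr4 (1.70), Selplg (1.29) and Selp, which fell by 1.04 and lost its call without HFD_3. Beside these 17 genes, 14.1% of all tested genes rose in HFD_IO against HFD and 17.5% in HFD_IO against CD. In HFD against CD 21.8% rose and 17.6% fell.

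The ligand of Csf3r was hardly detected. Csf3, the gene of granulocyte colony-stimulating factor, had 0.268, 0 and 0 FPKM in HFD_IO, 0.202, 0.169 and 0.218 FPKM in HFD, and 0, 0.0401 and 0.155 FPKM in CD. Its HFD values were all above its CD values, HFD_IO overlapped with both, and it did not pass the filter. Il17a, the gene of a cytokine that induces Csf3 and Lcn2, was listed at 0 in all 9 libraries.

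Marker levels of several other cell types also differed between the groups, some higher and some lower in HFD_IO. The 8 macrophage markers summed to 2428 to 3800 FPKM in HFD_IO, 1348 to 1713 in HFD and 359 to 432 in CD, and 8 of 8 rose in HFD_IO against HFD, 7 of 8 in HFD_IO against CD and 7 of 8 in HFD against CD. The shares of all tested genes that rose were 14.1%, 17.5% and 21.8% in the same order of comparisons. The 8 neutrophil markers, of which Csf3r, S100a8, S100a9 and Retnlg are among the 10 genes, summed to 37.4 to 104 FPKM in HFD_IO, 22.9 to 28.2 in HFD and 10.1 to 46.4 in CD. Of the 5 that entered the fit, Csf3r rose in HFD_IO against HFD and against CD. Mmp8 entered it only through the HFD_IO libraries, so no test is given for it. The part of macrophages in the levels of Lcn2 and Csf3r was not tested.

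Neutrophils circulate with red cells, whose transcripts were summed in each library. The 7 erythroid markers summed to 2573 to 4151 FPKM in HFD_IO, 8325 to 26101 in HFD and 4678 to 12375 in CD, and 4 of the 6 tested fell in HFD_IO against HFD, beside 14.5% of all tested genes. The part of residual blood in the levels of the 10 genes was not tested. Within CD, the erythroid sum was 12375, 6425 and 4678 FPKM and the platelet sum 77.1, 39.7 and 37.9 FPKM. CD_1 was the highest of its group in both and in the sum of the 9 genes. Within HFD, HFD_3 had the highest erythroid sum (26101 FPKM) and HFD_1 the highest sum of the 9 genes. The 7 classical monocyte markers summed to 38.8 to 47.4 FPKM in HFD_IO, 50.8 to 73.6 in HFD and 29.7 to 40.3 in CD, and the 5 eosinophil and basophil markers to 1.20 to 4.19, 0.412 to 1.23 and 0.143 to 0.714 in the same order of groups. The 7 white adipocyte markers summed to 256 to 1663 FPKM in HFD_IO, 1029 to 2763 in HFD and 427 to 986 in CD. Of the markers of other cells, those of epithelium and mesothelium, where Lcn2 can also be transcribed, summed to 13.2 to 15.4 FPKM in HFD_IO, 17.7 to 23.2 in HFD and 22.9 to 55.6 in CD. Chondrocyte markers summed to 165 to 606 FPKM in HFD_IO, 51.8 to 120 in HFD and 33.6 to 50.2 in CD. Sums in HFD_IO were below those in HFD without overlap for the platelet (48.8 to 53.2 against 59.7 to 90.1 FPKM), fibroblast (1037 to 1150 against 1239 to 1439) and B cell lists (4.41 to 7.42 against 8.65 to 94.1). The platelet sum was mostly Pf4 (mean 40.8 FPKM in HFD_IO and 60.9 in HFD). Of the 4 platelet markers tested, 0 were called in that comparison, and their median log2 fold change was 0.01. Of the B cell markers 0 of 3 were called, and 2 of 6 fibroblast markers fell, beside 14.5% of all tested genes. Sums in HFD_IO were above those in HFD for the endothelial list (215 to 255 against 108 to 206 FPKM) and overlapped for the mast cell and T cell lists. None of these lists had a marker at 0 in all 9 libraries, and their part in the levels of the 10 genes was not tested.

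**Figure D5:**
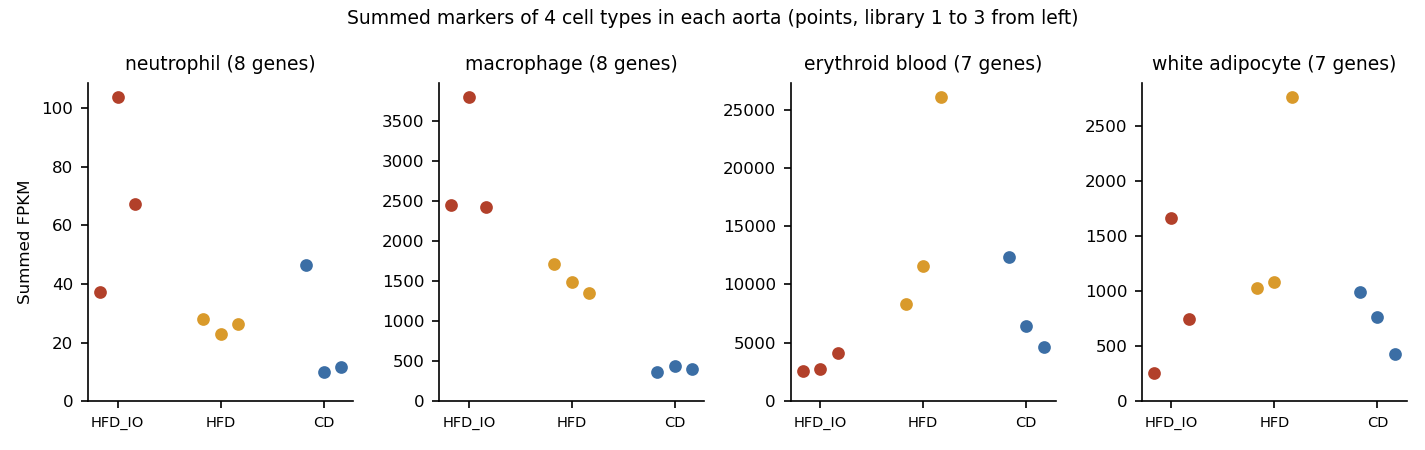
Summed FPKM of marker lists of neutrophils, macrophages, erythroid blood and white adipocytes (vertical axes) in each aorta, with HFD_IO left, HFD in the middle and CD right; points are libraries 1 to 3 of a group from left to right. The macrophage sum is highest in HFD_IO (2428 to 3800 FPKM) and lowest in CD, whereas the erythroid sum is lowest in HFD_IO (2573 to 4151 FPKM).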

How the data were processed

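Per the labels' protocols, RNA was isolated on Qiagen columns and turned into NEBNext libraries for Illumina sequencing. No source used here gives an enrichment step, the strand setting or the counting tool. The submitters' processing notes name HISAT2 and the human build hg38, while the gene identifiers are mouse: 54495 of the 54532 in the table are in GENCODE M21, and 98.3% have its coordinates on GRCm38, all 10 genes included. The authors deposited FPKM per gene with the gene length. Columns carry a group and a number that no sample label repeats, so each was assigned to its group only.

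FPKM times length was a whole multiple of 1 step for 100% of values above 0 (within 0.05 of a read), so reads were recovered. The implied denominators follow median-of-ratios size factors, not library totals. Values were tested as log2(FPKM + 1) with limma 3.58.1 (R 4.3.3), 9 libraries, 3 group means, a mean-variance trend and Benjamini-Hochberg adjustment over 13883 genes. Mpo and Elane were tested by exact permutation in scipy 1.17.1. The calculation was tested on simulated data. Replicate libraries were compared by chi-square, and none was a copy of another. Alternatives were 2 smaller pseudocounts, 3 filters, TPM, quantile scaling, voom, 2 groups only, no trend, library weights and leaving out each library. The 10 genes, the gene lists and the marker lists were chosen with earlier results of these data known. From each list the text names the called genes, or the 4 with the largest change, and other list genes were named after their values were seen. Promoters are those of RefSeq (GRCm38.p6), and all 10 genes matched by symbol.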

Additional observations from a re-analysis of the deposited data

How the results depend on the processing

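The calls of Lcn2 in both comparisons with CD and of Csf3r in both comparisons of HFD_IO held in all 20 alternatives. In HFD against CD, 3030 genes were called higher and 2440 lower. The higher count was 1018 with TPM and 1871 with voom, and the lower count 1332 with a filter of 5 FPKM and 4948 with TPM. In HFD_IO against HFD, 1956 were higher (1288 with the filter of 5 FPKM) and 2013 lower (1160 with TPM). In HFD_IO against CD, 2427 were higher (1528 with TPM) and 2089 lower (1367 with the filter of 5 FPKM, 3800 with TPM, 3409 with library weights). With TPM the median log2 fold change of all tested genes was -0.30 in HFD against CD, beside 0.06 in the main setting. It was 0.14 in HFD_IO against HFD, beside -0.00, and -0.23 in HFD_IO against CD, beside -0.01.

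Of the 8 genes, library weights, which put CD_1 at 0.234, called 6 higher in HFD_IO against CD, 3 in HFD_IO against HFD and 2 in HFD against CD. With these weights 24.2%, 17.4% and 30.7% of all tested genes were called higher, in the same order. TPM and the fit of 2 groups each called 2 in HFD_IO against HFD, beside 17.1% and 14.5% of all tested genes. Leaving out 1 library gave 2043 to 3316 genes higher, 1669 to 2844 lower and 1 to 2 of the 8 higher in HFD against CD. It gave 1182 to 2437, 1093 to 2507 and 1 to 4 in HFD_IO against HFD, and 1785 to 2573, 1260 to 2463 and 2 to 7 in HFD_IO against CD. The counts of 4 and 7 include genes that entered the fit only through the HFD_IO libraries. Directions turned for genes that were not called: in HFD against CD, Ltf was 0.02 with quantile scaling and Retnlg 0.12 with library weights, and leaving out 1 library gave -0.08 to 0.79 for Ngp, -0.02 to 0.53 for Camp, -0.21 to 0.18 for Ltf, -0.05 to 1.05 for S100a8 and -0.49 to 0.17 for Retnlg. In HFD_IO against HFD it gave -0.0047 to 1.22 for Camp. Among the other genes named as called, those of Serpinb1a, Saa3, S100b and Ly96 in HFD_IO against CD and of Il1b, Tlr4, Bsg and Cxcl5 in HFD_IO against HFD were lost with no filter, those of Serpinb1a, Ly96 and Bsg with TPM, those of Saa3 and Ly96 with voom, those of Bsg and Cxcl5 with a filter of 0.1 FPKM or 2 groups only, and that of Bsg with quantile scaling. The cause was not tested.

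No paired analysis was made, since the labels name no pairs of aortas across the groups. Mpo rested on 0 to 47 reads a library and Elane on 0 to 12, and with 3 aortas a group the exact test cannot give a p below 0.10.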
